A study of Trametes coccinea with 18 samples.

Results

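Mycelium of the white-rot fungus Trametes coccinea (Pycnoporus coccineus) CIRM-BRFM 310, grown on a mixture of xylan and galactomannan, was compared with mycelium of the same strain grown on maltose. The comparison rests on 6 of the 18 RNA libraries of the series, 3 cultures on each carbon source, chosen by the carbon source in the sample titles, and covers every gene model of the genome. All cultures were harvested on day 3 from liquid medium at 30 °C. The maltose cultures held 20 g/l of maltose, whereas the xylan-galactomannan cultures held 15 g/l of polysaccharide and 2.5 g/l of maltose, so that the effect of the polysaccharide and that of less maltose cannot be told apart in this contrast. The Avicel (microcrystalline cellulose) and wheat straw cultures held 15 g/l of substrate and the same 2.5 g/l of maltose. They are used below as references at equal maltose, which means the amount supplied. The maltose left at harvest is not given in the sources used here. The aspen and pine libraries enter the fit and the placing of single libraries. All 18 libraries of the series come from this single strain, each from a separate culture of it.

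White-rot fungi live on wood and secrete enzymes that cut each polymer of the plant cell wall. Xylan is a chain of xylose that carries arabinose, glucuronic acid and acetyl branches, and galactomannan is a chain of mannose that carries galactose. Endoxylanases and mannanases cut the chains, arabinofuranosidases, glucuronidases, galactosidases and esterases remove the branches, and the released sugars enter the cell through transporters, where pentoses are reduced to sugar alcohols and galactose is phosphorylated on the way to central metabolism. Cellulose is attacked by cellobiohydrolases, endoglucanases and lytic polysaccharide monooxygenases (LPMOs), and lignin by class II peroxidases that use hydrogen peroxide made by partner oxidases. Carbohydrate-active enzymes (CAZymes) are grouped in families named GH (glycoside hydrolases), CE (carbohydrate esterases), PL (polysaccharide lyases) and AA (auxiliary oxidative activities), and CBM1 is a cellulose-binding module.

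The labels of the third xylan-galactomannan sample disagree. Its title and agent give xylan-galactomannan, but its medium description names wheat straw, so the counts of calls are also given for replicates 1 and 2 alone. Of the 82 calls against maltose among the 87 named genes, 81 were also made with replicates 1 and 2. The largest rises and falls among them had to be called with replicates 1 and 2 to be named. Total counts were 34293148, 26370228 and 34262266 for xylan-galactomannan replicates 1, 2 and 3 and 32853022, 35011152 and 29889534 for maltose replicates 1, 2 and 3. Over the 11168 gene models with enough counts to test, the root mean square distance between libraries, in log2 CPM (counts scaled to the library total), was 0.54 between xylan-galactomannan replicates 1 and 2, 0.60 between 1 and 3, and 0.82 between 2 and 3. The distance of replicate 3 to the wheat straw libraries was 0.84 to 0.86, against 1.10 to 1.16 for replicate 1 and 1.21 to 1.30 for replicate 2. Replicate 3 was thus about as far from wheat straw as from replicate 2 of its own group.

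The position of each library was measured gene by gene as a place on the line from the mean of the other replicates of its group (place 0) to the mean of another group (place 1), over genes called between these 2 ends without the library itself. Towards wheat straw the median place of replicate 3 was 0.476 over 3402 genes, with an interquartile range of 0.278 to 0.652. Replicates 1 and 2 had median places of -0.120 over 2137 genes and -0.208 over 1973 genes. The median place of replicate 3 was also above 0 towards aspen (0.387), Avicel (0.310), pine (0.289) and maltose (0.193), and it was highest towards wheat straw. Genes were chosen for a difference between the 2 ends, which by itself can move the library left out above 0. The ends for replicates 1 and 2 include replicate 3, so their places are not an independent reference. No test was run on these places, and the contents of the flask cannot be read from them.

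**Figure D1:**
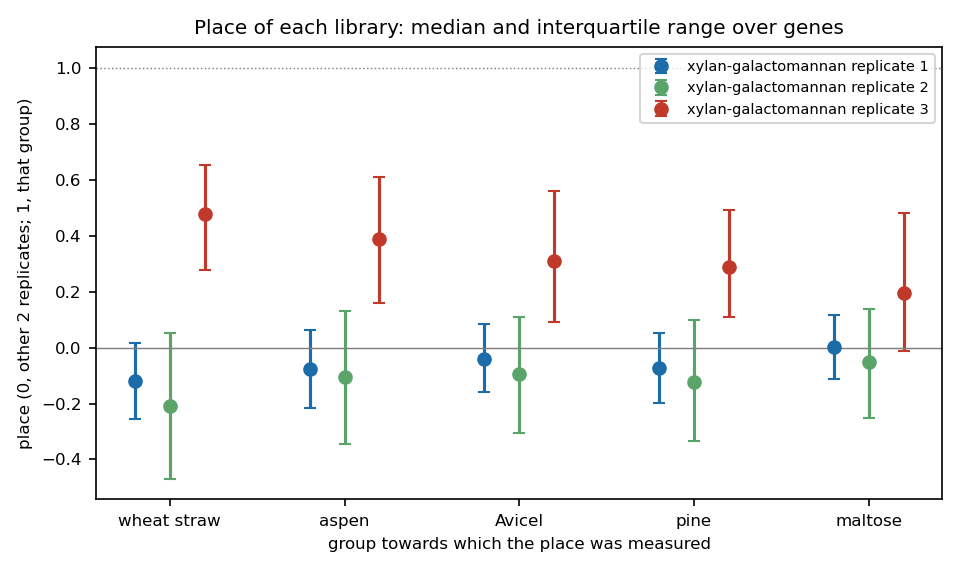
Place of each xylan-galactomannan library (y axis, no unit) on the line from its 2 sister libraries (0) to each of 5 other groups (x axis, 1 being that group), with points as medians over genes and bars as interquartile ranges. Replicate 3 lies above 0 towards every group, highest towards wheat straw at 0.476, while the medians of replicates 1 and 2 lie between -0.208 and 0.002.

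In the comparison of xylan-galactomannan with maltose, 2165 of the 11168 gene models (19.4%) rose and 1618 (14.5%) fell. A gene was called when its adjusted p was below 0.05 (edgeR quasi-likelihood test, Benjamini-Hochberg adjustment) and its log2 fold change exceeded 1 in size. Among the rises 943 exceeded 2 and 236 exceeded 4 on the log2 scale, and among the falls 544 and 111 did. All 3 xylan-galactomannan libraries lay above all 3 maltose libraries in 2118 of the genes that rose and below them in 1580 of those that fell, while over all tested genes 30.5% lay apart upwards and 27.2% downwards. With replicates 1 and 2 only, 2246 genes rose (20.0%) and 2084 fell (18.5%). Of the calls made with 3 libraries, 2069 rises and 1537 falls were also made with replicates 1 and 2, 96 rises and 81 falls were not, and 0 genes were called in opposite directions. Leaving out replicate 3 added 547 falls and 177 rises, so the number of falls changed more than that of rises. RNA came from whole mycelium, where a change in cell composition and a change of RNA per cell cannot be told apart.

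The gene groups below were formed from CAZy families, KOG classes (a classification of eukaryotic proteins by orthology) and EC numbers in the annotation published with the study. Nearly all annotated genes were listed there because their transcripts were abundant and raised on aspen, pine or wheat straw in these same libraries. The selection was made partly against the same maltose cultures and left out gene clusters high on maltose or Avicel. A high share of rises, or of genes higher than on Avicel, is therefore not independent evidence. Several genes for cellulose, xylan side chains and galactomannan were instead listed from the clusters with the most secreted proteins. The paper describes these clusters as mostly highest on Avicel, so lower levels than on Avicel are not independent evidence either. Listing for high levels on wheat straw likewise favours lower levels on xylan-galactomannan than on wheat straw. In all, 180 of the 330 annotated genes rose on xylan-galactomannan and 10 fell, and 38 of the 58 with a CAZy family rose and 3 fell. Among all genes tested, 19.4% rose and 14.5% fell. With replicates 1 and 2, 178 annotated genes rose and 18 fell, and 38 with a CAZy family rose and 4 fell. In that fit 20.0% of all genes rose and 18.5% fell. Levels are given as counts normalised for library size, log2 fold changes as value ± standard error from the fit, and groups always comprise 3 libraries.

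Of the xylan-degrading genes, those for side chains had the largest rises, and the xylanase genes of family GH10 stayed at low levels. The GH30 glucanase/xylanase family member 1357645, one of the 3 members on the xylan backbone, had 7178, 8611 and 5239 normalised counts on xylan-galactomannan and 605, 445 and 261 on maltose, a rise of 4.03 ± 0.57 (adjusted p = 9.52e-06). The endoxylanase gene 1395316 (GH10) had 118, 87.9 and 120 counts on xylan-galactomannan and 28.9, 29.2 and 55.4 on maltose, and the difference passed the test (1.55 ± 0.33, adjusted p = 0.000683). The other GH10 gene, 1435885, had 154, 136 and 116 counts against 91.2, 90.7 and 133, the groups overlapped, and the difference of 0.39 ± 0.71 did not pass (adjusted p = 0.665). At equal maltose, 1435885 was lower on xylan-galactomannan, with a log2 difference of -3.54 from Avicel and of -3.88 from wheat straw, and both passed the test.

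Of the 10 genes for xylan side chains, 8 rose and 1 fell, where 19.4% and 14.5% of all genes did, and the counts were the same with replicates 1 and 2, where 20.0% and 18.5% did. The median log2 fold change was 3.12 against 0.01 over all genes tested. The largest rise was in the GH43 gene 1435501, of a family of arabinofuranosidases and xylosidases, with 6192, 7110 and 3111 counts on xylan-galactomannan against 44.5, 39.6 and 95.0 on maltose (6.53 ± 1.02, adjusted p = 3.15e-05). A second GH43 gene, 408613, lies next to it in the annotation, yet had only 638, 515 and 647 counts against 173, 190 and 184 (1.75 ± 0.46, adjusted p = 0.00377). The arabinofuranosidase gene 1357629 (GH51) had 10924, 11706 and 15697 counts against 366, 358 and 452 and rose by 5.06 ± 0.58 (adjusted p = 9.47e-07). In each of these genes the carbon sources were fully separated, and replicate 3 was the lowest xylan-galactomannan library for 1435501 and the highest for 1357629.

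Among the esterases and the glucuronidase, the acetyl esterase genes of family CE16 rose most. The gene 1439328 (CBM1-CE16) had 8192, 5933 and 7369 counts against 56.7, 38.6 and 151 (6.46 ± 0.73, adjusted p = 7.01e-07). The other CE16 gene, 1373375, had 6863, 8203 and 3981 counts against 258, 242 and 314 (4.57 ± 0.43, adjusted p = 8.48e-08), and it was the only side-chain gene that was also higher than on wheat straw, by 2.97 on the log2 scale. The α-glucuronidase gene 1426831 (GH115), whose product frees glucuronic acid from xylan, had 2200, 1430 and 3004 counts against 102, 75.1 and 252 (3.98 ± 0.50, adjusted p = 2.84e-06). The esterase genes 1377160 (CE1) and 1433098 (CE4) rose by 2.26 ± 0.38 and 1.44 ± 0.27.

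Both side-chain genes outside this trend encode esterases joined to a cellulose-binding module. The gene 1392142 (CBM1-CE1) fell from 182, 191 and 172 counts on maltose to 58.1, 64.5 and 58.7 on xylan-galactomannan (-1.56 ± 0.41, adjusted p = 0.00389). The glucuronoyl esterase gene 1470260 (CBM1-CE15), whose family cuts ester bonds between lignin and glucuronoxylan, had 152, 124 and 173 counts against 91.2, 58.4 and 172, which overlapped (0.51 ± 0.59, adjusted p = 0.49). Their log2 differences from Avicel were -6.53 and -6.31, and both passed the test.

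Against Avicel, the side-chain group was divided, with 4 genes higher and 4 lower on xylan-galactomannan, while 16.3% of all genes tested were higher and 14.2% lower. The higher genes were 1435501 and 408613 (GH43), 1357629 (GH51) and 1433098 (CE4), by 1.55 to 3.03 on the log2 scale. The lower genes were 1392142, 1470260, 1426831 and 1439328, of which 3 carry a CBM1 module. These lower genes were listed from the clusters that the paper describes as mostly highest on Avicel. With replicates 1 and 2, 4 were higher (17.6% of all genes) and 3 lower (18.3%), and 1439328 was no longer called. Against wheat straw 1 was higher and 3 were lower, with 11.2% of all genes higher and 12.1% lower, and the counts were again 1 and 3 without replicate 3, when 13.8% of all genes were higher and 16.5% lower.

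The galactomannan enzymes rose moderately. The mannanase gene 1359888 (CBM1-GH5_7) had 1504, 1375 and 2224 counts on xylan-galactomannan against 179, 187 and 501 on maltose (2.59 ± 0.61, adjusted p = 0.00156). It was lower than on Avicel and on wheat straw, with log2 differences of -4.06 and -2.15 that passed the test. The α-galactosidase gene 1431843 (GH27), whose family removes galactose branches, was already abundant on maltose with 3894, 4489 and 3770 counts and reached 17107, 16843 and 13310 (1.99 ± 0.26, adjusted p = 3.73e-06). Against wheat straw its difference was 0.99 with 3 libraries, not called, and 1.08 with replicates 1 and 2, called. Neither gene overlapped between xylan-galactomannan and maltose, where 30.5% of all genes lay apart upwards. Against maltose both were called with 3 libraries and also with replicates 1 and 2, where 19.4% and 20.0% of all genes rose.

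Most genes grouped here under pentose and galactose catabolism rose as well. The grouping rests on KOG class or EC number, and the sugars these proteins act on were not tested. Of the 8 members, 6 rose and 0 fell, where 19.4% and 14.5% of all genes rose and fell, with the same counts from replicates 1 and 2, and the median log2 fold change was 2.57. In all 8 the xylan-galactomannan libraries lay above the maltose libraries, as they did in 30.5% of all genes. The aldo/keto reductase gene 1378769 (KOG1577, a class that includes fungal xylose reductases) had the largest rise of them, with 27921, 24441 and 25440 counts against 295, 444 and 518 (5.98 ± 0.27, adjusted p = 6.85e-11). Replicate 3 did not stand apart for this gene. A second member of the class, 1432753, had 13897, 13616 and 11567 counts against 1374, 1755 and 1631 (3.07 ± 0.21, adjusted p = 1.88e-09). The gene 1436138, annotated as aldose reductase (EC 1.1.1.21), rose by 2.66 ± 0.24, and the aldo/keto reductase genes of class KOG1575, 1399796 and 1370490, rose by 4.25 ± 0.33 and 2.47 ± 0.42.

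The polyol dehydrogenase gene 1387014 (KOG0024, EC 1.1.1.14), of a family that oxidises sugar alcohols such as sorbitol and xylitol, had 8884, 8926 and 9250 counts against 1783, 2323 and 2362 (2.10 ± 0.29, adjusted p = 9.76e-06). Galactokinase (1112144, KOG0631), which phosphorylates galactose at the entry of its catabolic route, had 2684, 2079 and 2108 counts against 1108, 1151 and 1364. Its difference of 0.95 ± 0.24 had an adjusted p of 0.00247 but lay under the fold threshold, as did that of the reductase gene 1447101 (0.80 ± 0.26, adjusted p = 0.0149). In the direct comparison with Avicel at equal maltose, 7 of the 8 genes were higher on xylan-galactomannan, where 16.3% of all genes were higher, with the same count without replicate 3, and the exception was 1447101, at -1.47. The selection of these genes had left out clusters high on Avicel, so this count is a description. Galactokinase was among the 7, at 1.92 on the log2 scale. Against wheat straw only 1378769 was higher, by 1.44, while 1370490 and 1447101 were lower, at -1.44 and -1.47. Among all genes 11.2% were higher and 12.1% lower. The counts were the same without replicate 3, where 13.8% of all genes were higher and 16.5% lower.

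Transporter genes of the major facilitator superfamily (MFS), the family of the fungal sugar transporters, had no common direction. Their counts of calls lay near the shares of all genes. Of 7 members, 2 rose and 1 fell, where 19.4% and 14.5% of all genes rose and fell, with the same counts from replicates 1 and 2. The gene 1441122 (KOG0254) had 4098, 3379 and 4457 counts against 170, 161 and 170 on maltose (4.61 ± 0.38, adjusted p = 1.42e-08) and was higher than on Avicel by 3.92 on the log2 scale. The gene 1452937, of the same class, had 5361, 5356 and 6378 counts against 1272, 887 and 572 (2.69 ± 0.36, adjusted p = 5.18e-06). A further KOG0254 member, 1428914, had 191, 185 and 362 counts against 258, 293 and 424, and its difference of -0.35 ± 0.34 did not pass (adjusted p = 0.399), while on Avicel it had 2068, 1554 and 2020 counts. The MFS gene 1436606 (KOG0255) fell from 716, 792 and 1079 counts on maltose to 113, 58.6 and 88.1 (-3.28 ± 0.49, adjusted p = 2.09e-05).

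**Figure D2:**
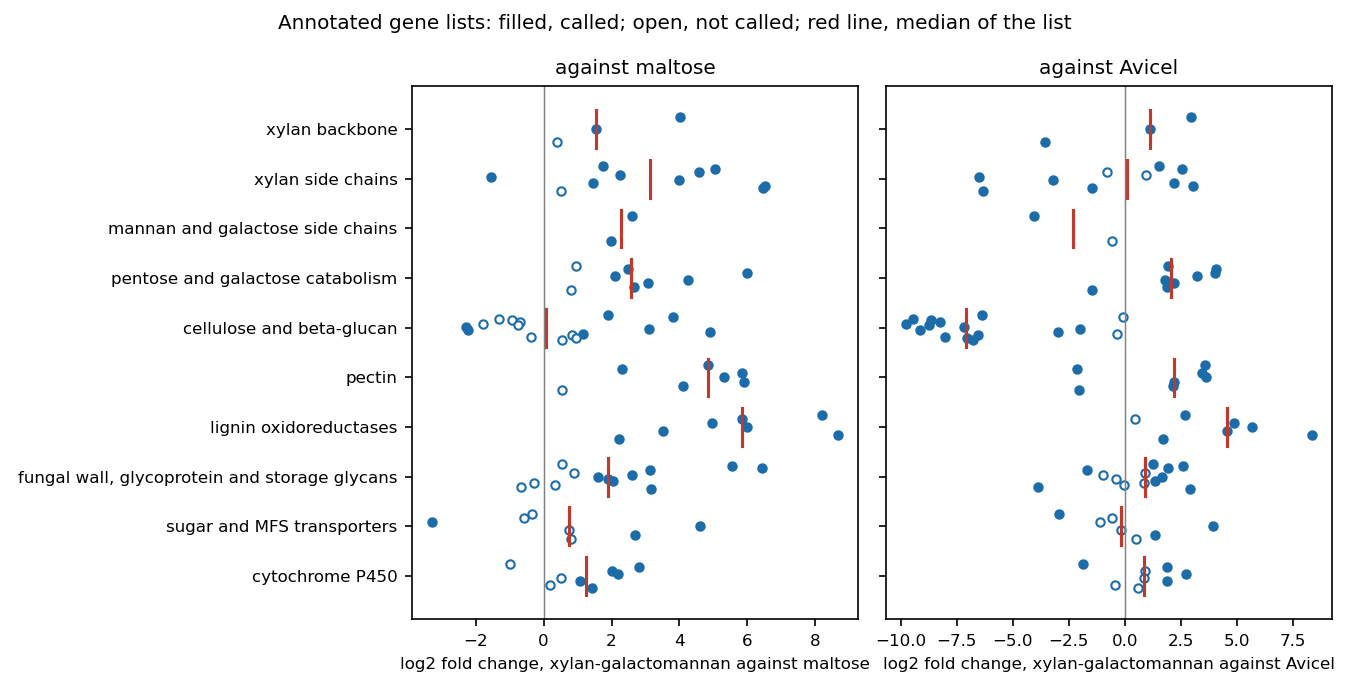
Log2 fold change (x axis) of each annotated gene on xylan-galactomannan against maltose (left) and against Avicel (right), by gene group (y axis), with filled points called, open points not called and red lines at the group medians. The cellulose and beta-glucan group has its median at 0.08 against maltose and at -7.11 against Avicel, while the lignin oxidoreductases have theirs at 5.85 and 4.56.

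The cellulose-degrading system had no common direction against maltose, and the share of its genes that rose (31.2%) was not below that of all genes. Of its 16 genes, 5 rose, 2 fell and 9 were not called on xylan-galactomannan against maltose, where 19.4% of all genes rose and 14.5% fell, and the median log2 fold change was 0.08. The cellobiohydrolase gene 1389216 (GH7), whose product releases cellobiose from chain ends, had 40.9, 68.0 and 104 counts on xylan-galactomannan and 107, 64.7 and 586 on maltose (-1.79 ± 0.75, adjusted p = 0.0538). On Avicel it had 78526, 49482 and 56958 counts, and on wheat straw 1681, 8484 and 4822. The second GH7 gene, 1366028, had 29.0, 49.2 and 52.2 counts against 77.8, 70.9 and 184 (-1.32 ± 0.60, adjusted p = 0.0743), and the difference from Avicel was -9.47 ± 0.78 (adjusted p = 4.04e-08). The xylan-galactomannan levels of these genes thus overlapped or lay below those of maltose, and far below those of both other substrates.

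The LPMO genes of family AA9, which cleave cellulose oxidatively, were likewise low. The gene 1428145 (AA9-CBM1) had 62.6, 93.8 and 136 counts on xylan-galactomannan, 356, 363 and 711 on maltose, 53208, 55586 and 57420 on Avicel and 5716, 12837 and 11798 on wheat straw. It fell against maltose (-2.24 ± 0.51, adjusted p = 0.00119), and its log2 differences from Avicel and wheat straw were -9.16 and -6.69. The gene 1382161 (AA9-CBM1) was not called against maltose (-0.69 ± 0.50, adjusted p = 0.261), and neither was 1466495 (AA9), which stood near the lowest measurable level with 3.6, 7.0 and 8.2 counts on xylan-galactomannan and 6.7, 8.3 and 9.9 on maltose. On wheat straw 1466495 had 1304, 14293 and 7366 counts. Cellobiose dehydrogenase (1401955, AA8-AA3_1), which supplies electrons to LPMOs, had 147, 141 and 258 counts against 121, 170 and 662 on maltose (-0.77 ± 0.59, adjusted p = 0.286) and 70288, 79081 and 85153 on Avicel.

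The 5 rises of the cellulose group included genes of several families. The endoglucanase gene 1433077 (GH45) had 1631, 1605 and 1139 counts against 33.4, 28.2 and 86.1 (4.90 ± 0.45, adjusted p = 4.91e-08). The gene 1358049 (GH12), of a family that includes xyloglucan-active enzymes, had 586, 553 and 599 counts against 64.5, 27.1 and 35.6 (3.81 ± 0.57, adjusted p = 1.98e-05) and was not called against Avicel (-0.06 ± 0.49, adjusted p = 0.929). The β-glucosidase-family gene 1411666 (GH3) rose by 3.10 ± 0.33 and 1434274 (GH3) by 1.15 ± 0.40, and the latter was not called against Avicel either (-0.35 ± 0.39). The cellobiohydrolase gene 1357326 (CBM1-GH6) had 796, 749 and 879 counts against 110, 83.4 and 464 (1.90 ± 0.66, adjusted p = 0.0217). The second gene that fell was 1404940 (CBM1-GH3), from 320, 275 and 586 counts to 78.1, 72.7 and 84.8 (-2.29 ± 0.60, adjusted p = 0.00392).

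In the tests at equal maltose, 14 of the 16 cellulose genes were lower on xylan-galactomannan than on Avicel and 0 were higher, where 14.2% of all genes were lower. Many of these genes were listed from clusters that the paper describes as mostly highest on Avicel, so this count is a description. Against wheat straw 15 were lower and 0 were higher, where 12.1% of all genes were lower. Others of these genes were listed for high levels on aspen, pine or wheat straw, so this count is a description as well. Both counts were the same without replicate 3, where 18.3% of all genes were lower than on Avicel and 16.5% lower than on wheat straw. The medians were -7.11 and -3.21 on the log2 scale, against -0.01 and -0.02 over all genes tested. Maltose replicate 3 was the highest maltose library for 15 of the 16 genes, a count not made over all genes. Without maltose replicate 1 or without maltose replicate 2 the rises numbered 3, with 1357326 and 1434274 no longer called, and 1434274 was also lost without xylan-galactomannan replicate 2 (0.92). Without maltose replicate 3 they numbered 6. With replicates 1 and 2 of xylan-galactomannan only, 5 rose and 3 fell, the added fall being 1389216 (GH7).

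The medium description of replicate 3 names wheat straw. Replicate 3 lay below all 3 wheat straw libraries, a comparison not counted over all genes, for 15 of the 16 cellulose genes. Over the 15 that differed between wheat straw and replicates 1 and 2, its median place was 0.093, with a range of -0.295 to 0.251, while over all 1855 genes that were higher on wheat straw in the same test the median place was 0.563, with a range of -1.267 to 1.576. The other annotated groups, in which 1 to 6 genes could be placed, had median places from -0.062 to 0.282. These were -0.062 for the xylan backbone, -0.033 for pentose and galactose catabolism, 0.076 for lignin oxidoreductases, 0.083 for xylan side chains, 0.132 for P450 genes, 0.138 for pectin, 0.232 for transporters, 0.277 for glycan enzymes and 0.282 for galactomannan. These values are a description of 1 library, and what they owe to its medium was not tested.

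**Figure D3:**
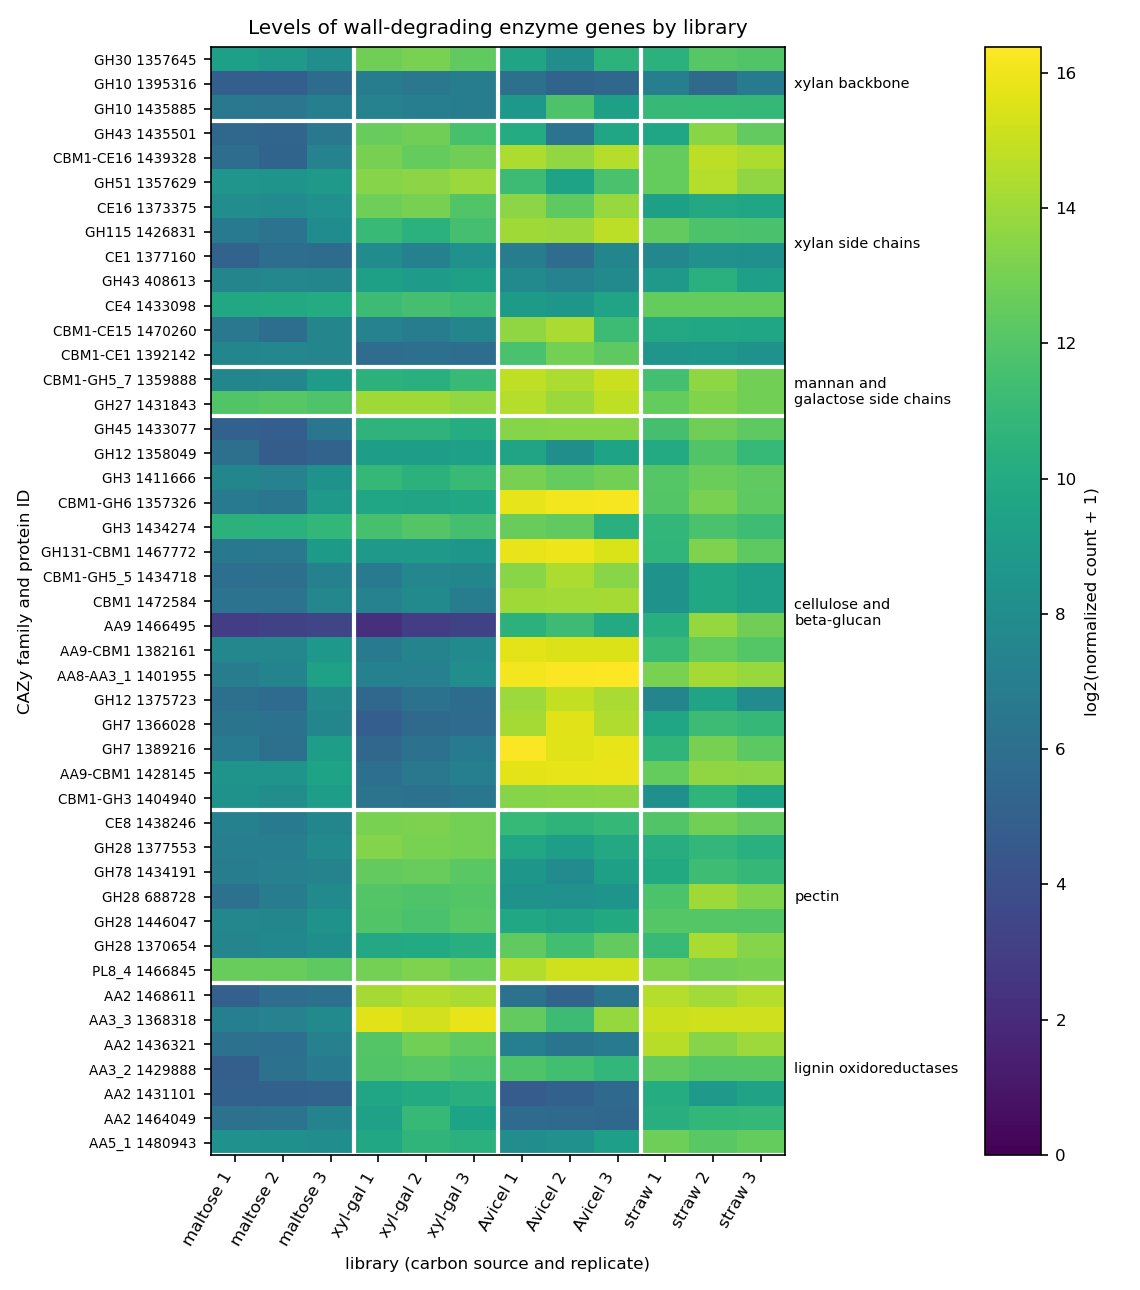
Level of each gene (rows, CAZy family and protein ID) in 12 libraries (columns, carbon source and replicate), coloured by log2(normalised count + 1). Most cellulose genes are darker in all 3 xylan-galactomannan libraries than on Avicel and wheat straw (14 and 15 of 16 called lower), and the AA2 peroxidases are brighter on xylan-galactomannan and wheat straw than on maltose and Avicel.

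Genes for pectin-degrading enzymes rose as a rule. Of the 7 genes placed in this group, 6 rose and 0 fell, where 19.4% and 14.5% of all genes did, with the same counts from replicates 1 and 2, and the median log2 fold change was 4.84. The polygalacturonase-family gene 1377553 (GH28) had 10135, 8843 and 8026 counts against 125, 128 and 222 on maltose (5.85 ± 0.49, adjusted p = 1.79e-08), and it was higher than on Avicel by 3.47 and than on wheat straw by 2.63. The pectin methylesterase gene 1438246 (CE8) had 8658, 9040 and 7806 counts against 147, 104 and 180 (5.91 ± 0.38, adjusted p = 1.18e-09). The rhamnosidase-family gene 1434191 (GH78) rose by 5.31 ± 0.49, and the other GH28 genes, 688728, 1446047 and 1370654, by 4.84 ± 0.57, 4.10 ± 0.28 and 2.32 ± 0.61. The polysaccharide lyase gene 1466845 (PL8_4) differed by 0.54 ± 0.23 and was not called (adjusted p = 0.0576). The paper does not tie this gene to pectin, so its place in the group is uncertain. Against Avicel 5 of the 7 were higher on xylan-galactomannan, and 1370654 and 1466845 were lower, where 16.3% of all genes were higher and 14.2% lower, with the same count without replicate 3. Most of these genes had been selected with clusters high on Avicel left out, so this count too is a description. Against wheat straw 2 were higher (1377553 and 1434191) and 2 were lower (688728 and 1370654), where 11.2% and 12.1% of all genes were, and 688728 was no longer called without replicate 3.

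All 7 genes for lignin-active oxidoreductases rose, where 19.4% of all genes did, with a median of 5.85 on the log2 scale, and all 7 rose with replicates 1 and 2 only. The class II peroxidase gene 1468611 (AA2) had 18359, 23245 and 19831 counts on xylan-galactomannan and 31.1, 56.3 and 65.3 on maltose (8.67 ± 0.59, adjusted p = 2.06e-09). The AA2 genes 1436321, 1431101 and 1464049 rose by 5.98 ± 0.64, 4.97 ± 0.44 and 3.51 ± 0.41. For 1464049, replicate 2 with 2045 counts stood above replicates 1 and 3 with 661 and 733. The AA3_3 gene 1368318, of a family of alcohol oxidases that release hydrogen peroxide, had 50246, 38791 and 58824 counts against 136, 155 and 219 (8.21 ± 0.64, adjusted p = 8.93e-09). The AA3_2 gene 1429888, of a family that includes aryl-alcohol oxidases, rose by 5.85 ± 0.38. The AA5_1 copper radical oxidase gene 1480943, of a family that includes glyoxal oxidases, rose by 2.23 ± 0.56.

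The peroxidase genes also differed from Avicel, at equal maltose. All 4 AA2 genes were higher on xylan-galactomannan than on Avicel by 8.35 (1468611), 5.67 (1436321), 4.89 (1431101) and 4.56 (1464049) on the log2 scale. Of the 7 genes of the group, 6 were higher than on Avicel, where 16.3% of all genes were, with the same count without replicate 3, the exception being 1429888 (0.44, not called). Clusters high on Avicel were left out when most of these genes were selected, so this count is a description. Against wheat straw 0 of the 7 were higher, and 1436321 and 1480943 were lower, at -1.62 and -2.12. Among all genes 11.2% were higher and 12.1% lower. Without replicate 3 the counts of the group were the same, where 13.8% of all genes were higher and 16.5% lower.

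Enzymes acting on fungal wall, glycoprotein and storage glycans were mixed, with 8 of 13 genes rising and 0 falling, where 19.4% and 14.5% of all genes did, with the same counts from replicates 1 and 2, and a median of 1.89 on the log2 scale. The largest rises were in 718112 (GH32, annotated as invertase, which splits sucrose), with 6208, 6207 and 3865 counts against 40.0, 51.1 and 101 (6.42 ± 0.43, adjusted p = 1.73e-09), and in 320973 (GH76, an α-mannanase family), with 13956, 18706 and 6256 counts against 316, 300 and 230 (5.54 ± 0.48, adjusted p = 2.41e-08). Replicate 3 was the lowest of its group for both. The glucoamylase-family gene 1507511 (GH15), whose products release glucose from starch and maltose-type chains, rose from 1568, 1481 and 1708 counts to 13356, 17347 and 11329 (3.17 ± 0.35, adjusted p = 6.33e-07). It was also higher than on Avicel by 2.92 and than on wheat straw by 1.45, where the same maltose concentration was supplied. The α-mannosidase-family genes 1369367 (GH47), 1373467 (GH92) and 1423703 (GH47) rose by 3.13 ± 0.44, 2.61 ± 0.39 and 1.59 ± 0.28. The α-glucosidase-family gene 1435128 (GH31) rose by 2.03 ± 0.23 and the β-1,3-glucanase-family gene 1433845 (GH17) by 1.89 ± 0.35.

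Cytochrome P450 genes, which encode monooxygenases, rose in 5 of 8 cases and fell in 0 (4 and 0 with replicates 1 and 2), where 19.4% and 14.5% of all genes did, with a median of 1.25 on the log2 scale. The largest rise was in 1369748 (KOG0157), with 5781, 5444 and 3391 counts against 716, 662 and 759 (2.80 ± 0.31, adjusted p = 6.09e-07). The genes 1436381, 1435960 and 1521754 rose by 2.19 ± 0.21, 2.00 ± 0.26 and 1.43 ± 0.32. The rise of 1440117 (1.07 ± 0.30, adjusted p = 0.0066) was the only call among the named genes that was lost with replicates 1 and 2 only, where it stood at 0.99, and it also fell below the fold threshold without xylan-galactomannan replicate 1 (1.00), maltose replicate 2 (0.90) or maltose replicate 3 (0.94).

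The largest changes were taken among genes called both with 3 libraries and with replicates 1 and 2. These genes also had no overlap between the carbon sources and at least 100 normalised counts on average over the 6 libraries. The 10 largest rises lay between 7.46 and 11.09 on the log2 scale. The largest was gene model 1437297, for which the sources used here give no family, with 26759, 37430 and 12730 counts on xylan-galactomannan against 6.7, 8.3 and 19.8 on maltose (11.09 ± 0.63, adjusted p = 3.39e-10). It was also higher than on Avicel by 5.74 and than on wheat straw by 4.91, and replicate 3, the lowest of its group, was still far above all maltose libraries. The gene 1511705 (KOG0538, EC 1.1.2.3, a flavin-dependent L-lactate dehydrogenase) had 123710, 127412 and 109716 counts against 783, 480 and 707 (7.55 ± 0.65, adjusted p = 2.56e-08). The tripeptidyl-peptidase gene 1438837 (EC 3.4.14.9) had 21596, 16314 and 36781 counts against 71.2, 116 and 219 (7.56 ± 0.76, adjusted p = 1.6e-07), and its log2 difference from wheat straw was -1.78.

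These genes were chosen for their level in the same xylan-galactomannan libraries, which favours a higher level than in any other group, so their values against Avicel and wheat straw are a description. All 10 were higher than on Avicel (16.3% of all genes), and 4 were higher than on wheat straw (11.2%), 5 were not called and 1 was lower. The 4 were 1437297, 448186, 1468135 and 1476541, and both sets of counts were the same without replicate 3. The gene 448186 had 753, 556 and 680 counts against 3.3, 1.0 and 2.0 on maltose (8.26 ± 0.80), and 1468135 had 2345, 1778 and 1968 against 12.2, 3.1 and 7.9 (8.05 ± 0.68). These genes adjoin each other in the annotation, and their differences from Avicel (3.61 and 3.60) and from wheat straw (3.64 and 3.64) were nearly equal. The remaining rises were the AA2 gene 1468611 and the AA3_3 gene 1368318 described above, 1430513 (8.09 ± 0.56), 1476541 (7.97 ± 0.49) and 679895 (7.46 ± 0.60), and 679895 was higher than on Avicel by 8.96.

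The 10 largest falls under the same limits lay between -7.96 and -7.02 on the log2 scale, and the sources used here give no family for any of them. Several had very high counts on maltose. The gene 1427729 had 114727, 127918 and 101130 counts on maltose and 849, 378 and 764 on xylan-galactomannan (-7.39 ± 0.65, adjusted p = 3.28e-08). The gene 1466450 had 183238, 170035 and 111633 counts on maltose and 1405, 447 and 211 on xylan-galactomannan (-7.80 ± 1.21, adjusted p = 2.98e-05). For 1466629 the maltose libraries had 144542, 159618 and 70433 counts and the xylan-galactomannan libraries 1216, 331 and 88.1 (-7.83 ± 1.33, adjusted p = 8.13e-05), so its libraries were widely spread within xylan-galactomannan but did not overlap with maltose. The largest fall, in 1468038, ended near the lowest measurable level, with 1.8, 0.0 and 1.6 counts against 395, 433 and 220, so that its fitted value of -7.96 ± 0.76 depends on the small count added in the fit. The fitted rise of 448186 depends on it likewise.

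**Figure D4:**
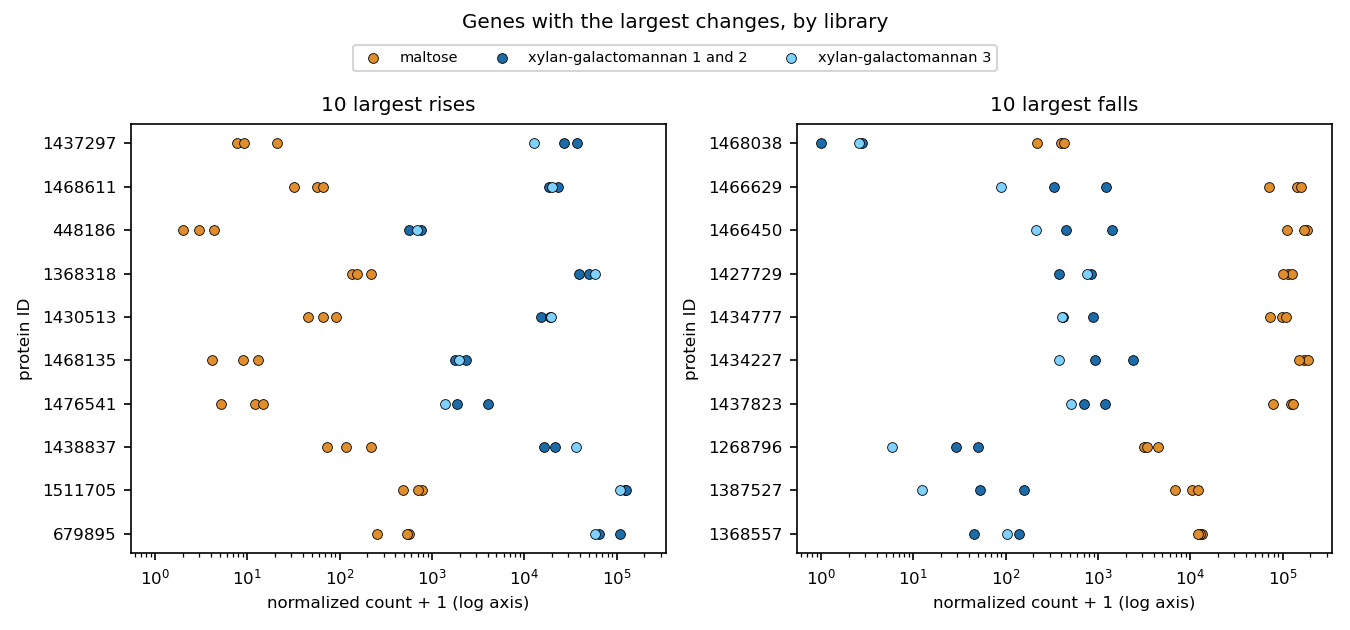
Normalised count + 1 on a logarithmic x axis for the 10 largest rises (left) and the 10 largest falls (right), with 1 point per library and genes by protein ID on the y axis. No gene overlaps between maltose and xylan-galactomannan, and replicate 3 (light blue) is the lowest xylan-galactomannan library for falls such as 1466629 at 88.1 counts.

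The falls were likewise chosen for a low level in these xylan-galactomannan libraries, which favours a lower level than in any other group. Against Avicel 8 of the 10 were lower (14.2% of all genes) and 0 were higher, and with replicates 1 and 2 only 5 were lower (18.3%), the calls of 1434227, 1437823 and 1466450 being lost. Against wheat straw 2 were higher (1466450 by 3.28 and 1466629 by 3.44), 1 was lower (1368557 at -1.62) and 7 were not called, and without replicate 3 the fall 1434227 was also called as higher (2.36). Among the 100 largest falls, the genes with the highest counts on maltose were 1438861, 1433314 and 1434227. The gene 1438861 fell from 232592, 257022 and 161403 counts to 10140, 6897 and 8135 (-4.66 ± 0.27, adjusted p = 3.65e-10), and its level did not differ detectably from that on Avicel (-0.02, not called). The gene 1433314 fell from 188793, 195085 and 122836 counts to 3564, 2472 and 1706 (-6.01 ± 0.41, adjusted p = 2.06e-09). The gene 1434227 fell from 171518, 187099 and 149213 counts to 2383, 923 and 381 (-7.09 ± 1.02, adjusted p = 1.31e-05).

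Ranked by RPKM (reads scaled to mappable length and library total), which allows levels of different genes to be compared, the 5 most abundant gene models on xylan-galactomannan were 1434042 (mean 26130 RPKM), 1444108 (13140), 1455990 (12790), 1475073 (11120) and 739269 (7841). None has a family in the sources used here. Of these, 739269 rose most against maltose, from 8382, 12043 and 6522 normalised counts to 149682, 192811 and 84483 (4.01 ± 0.36, adjusted p = 4.72e-08), followed by 1434042 (3.39 ± 0.39), 1455990 (1.24 ± 0.39) and 1444108 (1.19 ± 0.33). The gene 1475073 was not called against maltose (-0.19 ± 0.25, adjusted p = 0.549) but was higher than on Avicel. Without xylan-galactomannan replicate 2, 1444108 stood at 0.86 and was no longer called, and without maltose replicate 3 the same was true of 1455990 (0.98).

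Called genes in which replicate 3 lay farthest below the mean of replicates 1 and 2 were 1466629, 1387527 and 1268796, all of them falls. For 1387527 the xylan-galactomannan counts were 159, 51.6 and 11.4 against 10532, 12027 and 6806 on maltose (-7.03 ± 1.13), and for 1268796 they were 49.0, 28.1 and 4.9 against 4480, 3192 and 3367 (-7.06 ± 0.66). Those in which it lay farthest above were 1048600, 1450736 and 1466053. The gene 1048600 had 21.8, 2.3 and 62.0 counts against 202, 213 and 348 on maltose (-3.04 ± 0.58). The gene 1466053 had 40.9, 11.7 and 179 counts against 217, 215 and 336 on maltose, and its fall was -1.64 with 3 libraries and -3.24 with replicates 1 and 2. For 1450736 the corresponding values were -1.77 and -3.15, so the size of these falls depended on replicate 3 while the call did not. The calls of 1450736 and 1466053 were lost without xylan-galactomannan replicate 1 (-1.48 and -1.32) and without maltose replicate 3 (-1.34 and -1.38).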

How the data were processed

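Poly-A RNA of day 3 mycelium was sequenced in 18 libraries, 3 cultures for each of 6 carbon sources. The authors aligned reads with TopHat2, counted them per gene model with HTSeq, and deposited raw counts (12690 gene models, 773 without a count) and RPKM, which are those counts scaled to mappable length and library total. The RPKM of 828 models with a mappable length of 0 are listed at 0. The genome version and the alignment settings are not given in the sources used here. Replicates were not pooled in the deposited values. Columns that matched no sample numbered 0.

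Counts were tested with edgeR 4.0.16 (R 4.3.3) in a quasi-likelihood fit over all 18 libraries, with TMM normalisation, the default filter on low counts (11168 models kept, 11254 without xylan-galactomannan replicate 3), Benjamini-Hochberg adjustment over all tested models, and a call at an adjusted p below 0.05 and a log2 fold change above 1 in size. Standard errors are the log2 fold change divided by the square root of F. Normalised counts are counts divided by DESeq2 1.42.0 size factors. The p-values measure the spread between these cultures. On counts simulated for xylan-galactomannan against maltose, 191 of 200 genes changed by 2 on the log2 scale were recovered among 11085 genes, with 3 false calls. The simulation changed no other gene, drew the changed genes from those without low counts and had no deviating library. Recovery at low counts, for smaller changes or with as many changed genes as here was not tested. Replicates differed by more than sampling noise (chi-square per degree of freedom of 23.5 to 272 for pairs of xylan-galactomannan or maltose libraries). Totals in the series ran from 26370228 to 42190522.

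Named genes were the 10 largest rises and 10 largest falls (called with and without replicate 3, without overlap, mean of at least 100 normalised counts over the 6 libraries), every member of the xylan, galactomannan and sugar catabolism lists, called members of the other lists (the 4 largest changes in a list with more than 8 calls), the 5 highest RPKM, the 3 called genes with replicate 3 farthest from the others on either side, and 3 genes highest on maltose among the 100 largest falls, 87 in all. Cellulose, pectin, transporter and reference values outside this rule were added after the values were seen. Lists and members were chosen with earlier results of these data known. Neighbouring genes were taken from the Pycco1 annotation in RefSeq tables, to which 12680 models matched.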

Additional observations from a re-analysis of the deposited data

How the results depend on the processing

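Against maltose, the counts of calls kept within 1.5 times of 2165 rises and 1618 falls under RLE normalisation, DESeq2, no filter on low counts, the 6 libraries alone and the 5 libraries without replicate 3. A Bonferroni adjustment left 944 rises and 548 falls (961 and 560 with replicates 1 and 2, 295 and 167 against wheat straw, 621 and 414 against Avicel). Under it the xylan backbone kept 1 rise, the side chains 5 rises and 0 falls, the galactomannan genes 1 rise, the cellulose genes 3 rises and 0 falls, and the P450 genes 3 rises. Leaving out 1 of the 6 libraries gave 1852 to 2246 rises and 1442 to 2084 falls. Leaving out 1 maltose library moved the cellulose rises over a range of 3 to 6, and the 5 libraries alone gave 4 cellulose falls. One P450 fall appeared under DESeq2, with the replicate block and with the 6 libraries alone (1 each, against 0). The place of replicate 3 was 0.486 on log2 normalised counts and 0.437 over genes above 2 on the log2 scale. Towards pine (0.289) and maltose (0.193), directions added after the data were seen, it moved from 0.476 by more than its interquartile range divided by 2. The causes were not tested. Of 1131 refits of named genes, 1088 kept their call and 0 changed direction, and 24 calls were lost under the Bonferroni adjustment.

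Replicate numbers are shared by the groups but do not mark a common batch in the labels. Deviations of same-numbered xylan-galactomannan and maltose libraries correlated with r of -0.024, 0.208 and 0.235, so they were not treated as pairs, and the fit with the number as a replicate block gave 2154 rises and 1661 falls.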

Other observations

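Some genes that changed in the same direction stood next to each other. Taking gene models in annotation order, with less than 5 kb between neighbours, 172 runs of 3 or more adjacent genes were called the same way on xylan-galactomannan against maltose, 104 upwards and 68 downwards, holding 577 genes, the longest of 7. These runs were chosen after their values were seen, and no test of their number was made. One run holds 711007, the lactate dehydrogenase gene 1511705, 710961 and 1371554 (KOG1260, the isocitrate lyase class). Of these, 1371554 had 230851, 289167 and 200453 normalised counts against 3059, 1762 and 2685 on maltose (6.61 ± 0.61, edgeR adjusted p = 6.23e-08), and 711007 rose by 1.03 ± 0.21. The aldo/keto reductase gene 1378769 stands between 1261180 (5.94 ± 0.38) and 1260776 (5.17 ± 0.29), which have no family in the sources used here. A pair of adjacent genes, 271638 and 1477222, had 1046, 766 and 818 and 863, 462 and 576 counts on xylan-galactomannan and at most 11.9 in any maltose library (7.29 ± 0.60 and 6.67 ± 0.90). A run of 4 falls holds 1376903, 1428395, 1440097 and 1461855, at -6.08, -3.73, -3.84 and -3.53 on the log2 scale.

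Of the genes that the study selected for aspen, pine or wheat straw in these libraries, 93 of 121, 107 of 224 and 81 of 105 rose on xylan-galactomannan against maltose, and 0, 7 and 0 fell. Among all tested genes 19.4% rose and 14.5% fell. Since maltose cultures took part in their selection, these counts are no independent measure. In the comparison with wheat straw, 38 of those selected for aspen, 65 of those for pine and 39 of those for straw were lower on xylan-galactomannan, and 22, 20 and 6 were higher, where 12.1% and 11.2% of all tested genes were. The straw genes were selected for high levels in these same wheat straw libraries, which favours a lower level on xylan-galactomannan, so these counts are a description as well. Without replicate 3, 37, 80 and 40 were lower and 21, 24 and 6 higher, where 16.5% and 13.8% of all genes were.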
